A study of Mus musculus with 60 samples.

Results

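The endoplasmic reticulum (ER) chaperones and secretory pathway genes are 38 mouse genes that fold, check and export proteins on their way out of the cell, or that control that machinery. They were taken by gene symbol from a list, and all 38 were among the 55833 gene identifiers of 3 count tables. They fall into 6 roles, namely 9 chaperones of the ER lumen and their cofactors, 8 folding enzymes and lectins, 8 genes of ER-associated degradation (ERAD), 3 subunits of the translocon, 5 genes of export and retrieval, and 5 sensors and transcription factors. Under TGFβ1 most of the tested members rose in NMuMG cells, while in 4T1 cells most of the members that changed fell. Creb3l1, which encodes a membrane-bound transcription factor, rose most in NMuMG cells and had 0 counts in all 12 libraries of 4T1 cells.

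RNA sequencing covered 60 libraries from a pair of mouse cell lines, with 3 biological replicates in each of 20 groups. NMuMG is an epithelial line of the mouse mammary gland that loses epithelial features under TGFβ1, and 4T1, from a mouse mammary carcinoma, is labelled triple negative breast cancer. In the first experiment, NMuMG cells labelled sgPBRM1 (PBRM1 knockout) were set against NMuMG cells labelled sgCT (control), each treated with 5 ng/ml TGFβ1 for 0, 24, 48 or 72 h. PBRM1 is a subunit of the PBAF chromatin remodelling complex. In the second, NMuMG cells labelled shATF3 (ATF3 knockdown) were set against NMuMG cells labelled pLKO (control vector) over the same times and dose. ATF3 is a stress-induced transcription factor. In the third, 4T1 cells labelled shPBRM1 (PBRM1 knockdown) were set against 4T1 cells labelled pLKO, each without TGFβ1 (0 d) and after 4 d of TGFβ1 at 5 ng/ml. The labels list untreated NMuMG cells only as 0 h and do not tell whether these were collected before or alongside the treated ones. TGFβ1 and time in culture can therefore not be told apart. The protocol has 4T1 cells seeded with or without TGFβ1 for 4 d while the titles give 0 d for the untreated cells, and when those were collected is not told. The p-values measure the spread among 3 cultures of what is, as far as the labels tell, 1 cell population per genotype.

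The ER is where secreted and membrane proteins enter the secretory pathway through the Sec61 translocon, fold with the help of chaperones, disulfide isomerases and lectins, and leave in COPII-coated vesicles. Proteins that fail to fold are sent back to the cytosol by ERAD. When folding demand exceeds capacity, the sensors IRE1α (Ern1), ATF6 and PERK start the unfolded protein response, in which ATF6 and spliced XBP1 switch on chaperone and ERAD genes. CREB3L1 and CREB3L2 are relatives of ATF6 that are cut in the Golgi and are known for driving COPII and collagen export genes in cells that secrete matrix. Cells that turn mesenchymal under TGFβ secrete large amounts of collagen and fibronectin.

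Levels are in CPM, the counts of a gene per 1 M counts in tested genes, scaled between libraries with TMM factors, and are given for single libraries or as the mean ± SD of n = 3 libraries. A gene is said to rise, fall or be called where edgeR's quasi-likelihood test passed at a Benjamini-Hochberg adjusted p of 0.05, adjusted over all genes tested. Fold changes are on the log2 scale and carry a standard error (SE). Library totals were 16.2 to 21.9 M counts in the first experiment, 15.6 to 22.7 M in the second and 22 to 31.1 M in the third. Replicates differed beyond counting error, with a chi-square per degree of freedom of 1.75 to 2.64, 2.74 to 19.2 and 1.47 to 6.18. Replicate 2 of shATF3 at 72 h stood apart from its group at 19.2 and 17.5, against 5.69 between the other two, and so did replicate 1 of shATF3 at 0 h, at 10.6 and 10.9, against 3.86. Replicates 2 and 3 of pLKO at 72 h differed at 14.5. Pbrm1 averaged 97.2 ± 3.37 CPM in sgPBRM1 cells and 115 ± 0.37 CPM in sgCT cells at 0 h, and a guide RNA that breaks the reading frame need not remove the transcript. It averaged 28.3 CPM in shPBRM1 cells and 236 CPM in pLKO cells of 4T1 at 0 d. Atf3 was not lower at 0 h in the libraries labelled shATF3, which had 12.3 CPM, against 9.95 CPM in pLKO. It had 17.8 CPM in shATF3 and 26.9 CPM in pLKO at 24 h, and 6.78 CPM in shATF3 and 9.28 CPM in pLKO at 72 h. The summed level of 6 epithelial markers was 8528, 8203, 7227 and 6475 CPM in sgPBRM1 and 11173, 12182, 10521 and 9596 CPM in sgCT cells at 0, 24, 48 and 72 h. Leukocyte markers summed to at most 8.54 CPM in NMuMG groups and 16.9 CPM in 4T1 groups, and endothelial markers stayed at or below 0.948 CPM in all groups. Of the 6 epithelial markers 5 were over 1 CPM in NMuMG groups, and Epcam averaged at most 0.577 CPM there.

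Many of the members are classic targets of the unfolded protein response, and their promoters hold known response elements. RefSeq promoters (GRCm38.p6, from 250 bases before to 50 bases after the start) could be matched by gene identifier or symbol for 30 of the 38 members. The ER stress response element, which is CCAAT and CCACG with 9 bases of any kind between them and is known as a site of ATF6 with NF-Y, lay on either strand in 9 of these 30 (30%), against 0.137% of the 27025 genes with a promoter. It was found in Hspa5, Hsp90b1, Dnajc3, Creld2, Calr, Canx, Pdia6, Syvn1 and Derl3. The second such element, ATTGG and CCACG with 1 base between them, lay in Dnajb11 and Herpud1 (6.67%, against 0.0444% of genes). The core TGACGTGG of the unfolded protein response element, known to be bound by XBP1 and ATF6, lay in Sec23a, Sec24d and Kdelr3 (10%, against 0.714% of genes), which are all genes of export and retrieval. No matches overlapped each other, and 16 of the 30 members held none of these elements in a promoter. A match describes the sequence and does not show binding. Members were listed as genes of this response and of ER folding, so their higher shares are no separate evidence. The promoters of 6 members that the results return to are given in the direction of transcription, with the matched element in capitals. Hspa5 and Calr stand for the first element, Herpud1 for the second, and the 3 export genes for the core:

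Hspa5 (chr2:34771840-34772139, + strand): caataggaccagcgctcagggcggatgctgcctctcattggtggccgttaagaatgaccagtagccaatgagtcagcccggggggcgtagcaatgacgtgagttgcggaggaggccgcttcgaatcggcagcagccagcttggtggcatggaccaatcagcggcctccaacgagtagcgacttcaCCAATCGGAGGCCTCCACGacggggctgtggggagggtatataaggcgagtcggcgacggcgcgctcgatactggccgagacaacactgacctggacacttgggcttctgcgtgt
Calr (chr8:84846882-84847181, − strand): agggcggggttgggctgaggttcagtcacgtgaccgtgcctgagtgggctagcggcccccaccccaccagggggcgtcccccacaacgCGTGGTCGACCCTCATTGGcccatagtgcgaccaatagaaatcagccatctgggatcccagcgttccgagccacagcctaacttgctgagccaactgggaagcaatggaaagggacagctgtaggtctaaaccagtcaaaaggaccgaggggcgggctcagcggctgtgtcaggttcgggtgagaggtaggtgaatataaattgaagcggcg
Herpud1 (chr8:94386179-94386478, + strand): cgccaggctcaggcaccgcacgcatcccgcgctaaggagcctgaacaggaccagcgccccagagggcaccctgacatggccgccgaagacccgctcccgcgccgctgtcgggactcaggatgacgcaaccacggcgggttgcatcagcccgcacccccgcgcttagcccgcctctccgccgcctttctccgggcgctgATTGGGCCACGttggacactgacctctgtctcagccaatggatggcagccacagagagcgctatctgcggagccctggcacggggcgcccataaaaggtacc
Sec23a (chr12:59011968-59012267, − strand): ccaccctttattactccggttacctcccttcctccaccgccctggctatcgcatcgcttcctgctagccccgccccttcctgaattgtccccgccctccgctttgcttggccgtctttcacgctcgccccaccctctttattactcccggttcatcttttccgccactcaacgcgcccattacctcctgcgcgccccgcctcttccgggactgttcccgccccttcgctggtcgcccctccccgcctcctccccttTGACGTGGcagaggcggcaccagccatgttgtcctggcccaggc
Sec24d (chr3:123267246-123267545, + strand): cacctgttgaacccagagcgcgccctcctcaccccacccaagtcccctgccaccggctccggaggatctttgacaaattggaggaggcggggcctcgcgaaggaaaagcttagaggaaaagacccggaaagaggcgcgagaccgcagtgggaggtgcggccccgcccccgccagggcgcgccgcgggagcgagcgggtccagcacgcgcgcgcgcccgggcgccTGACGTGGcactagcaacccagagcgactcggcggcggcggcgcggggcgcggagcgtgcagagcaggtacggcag
Kdelr3 (chr15:79516158-79516457, + strand): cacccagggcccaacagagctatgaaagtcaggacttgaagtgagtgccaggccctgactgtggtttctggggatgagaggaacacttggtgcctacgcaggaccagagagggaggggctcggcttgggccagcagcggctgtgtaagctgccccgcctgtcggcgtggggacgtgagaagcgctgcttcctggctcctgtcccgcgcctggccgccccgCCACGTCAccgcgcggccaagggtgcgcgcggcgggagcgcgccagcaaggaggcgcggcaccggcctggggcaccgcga

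Before TGFβ1 the machinery was well expressed. Per kilobase of exons, Pdia3 led at 257 CPM in sgPBRM1 and 300.2 CPM in sgCT cells, followed by Calr (214 CPM in sgPBRM1, 258.5 CPM in sgCT) and Hspa5 (138 CPM in sgPBRM1, 170.5 CPM in sgCT). In 4T1 cells Hspa5 stood at 374 CPM per kilobase in shPBRM1 and 350.5 CPM in pLKO. A few members were near or at 0. Fkbp10, a collagen prolyl isomerase, had 0 to 5 counts per library in NMuMG and 0 to 2 in 4T1 and was not tested. Derl3, an ERAD channel gene, had at most 14 counts in any library and was tested only in the second experiment. This left 36, 37 and 35 of the 38 members tested in experiments 1, 2 and 3. Levels come from bulk RNA, so fewer expressing cells and less RNA per cell cannot be told apart.

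In the first experiment, TGFβ1 was followed by a broad rise of the members in both genotypes. In sgPBRM1 cells 29 members rose and 3 fell at 24 h, 33 rose and 2 fell at 48 h, and 28 rose and 4 fell at 72 h, of 36 tested. In sgCT cells 27 rose and 3 fell at 24 h, 29 rose and 2 fell at 48 h, and 26 rose and 8 fell at 72 h. Of all genes tested, 59.7%, 67.9% and 71.1% were called in either direction at these times in sgPBRM1 cells. In sgCT cells it was 59.4%, 65.5% and 69.3%. The share called among the members (32, 35 and 32 of 36 in sgPBRM1) was above that of all genes, and most of it lay in 1 direction. Members and other genes were not matched for level, and highly counted genes can pass with smaller changes. The median log2 fold change of the members was 0.38, 0.46 and 0.23 in sgPBRM1 and 0.23, 0.39 and 0.20 in sgCT cells, where the median of all tested genes lay near 0 and 50.2% to 51% of all called genes were higher. With library totals alone as the scale, which shifts the median of all genes by −0.188 in sgPBRM1 and −0.119 in sgCT cells at 72 h, 13 members rose and 9 fell in sgPBRM1 and 17 rose and 10 fell in sgCT cells at that time. At 72 h 4 of 6 epithelial markers fell and 1 rose in sgPBRM1 cells, and 5 of 6 fell and 1 rose in sgCT cells. Krt19 had a log2 fold change of −3.41 in sgPBRM1 cells. The part of these markers in the members' rise was not tested.

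**Figure D1:**
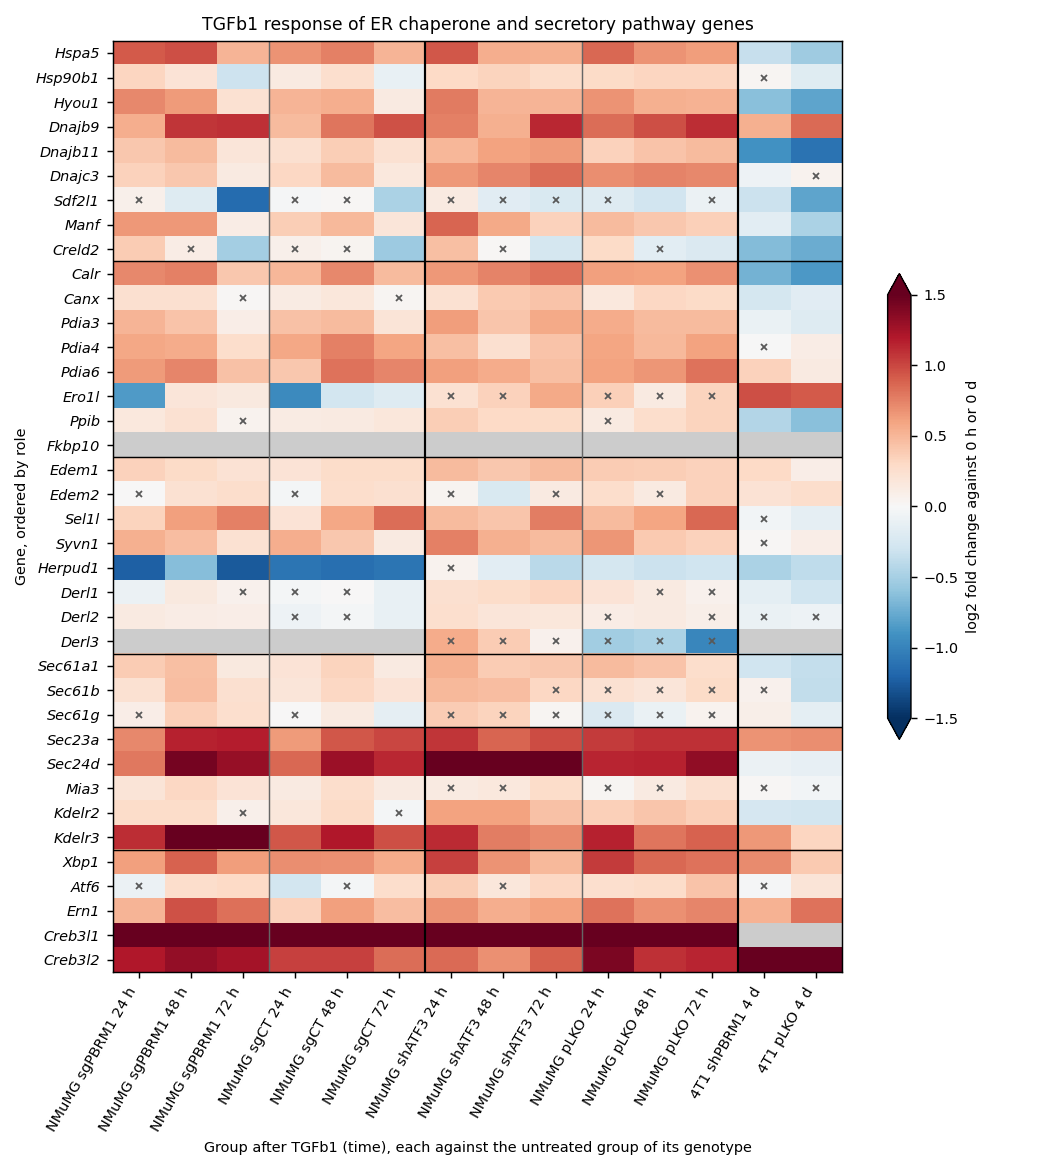
Log2 fold change of each member (rows, by role) under TGFβ1 against 0 h or 0 d of the same genotype, for NMuMG sgPBRM1, sgCT, shATF3 and pLKO at 24, 48 and 72 h and for 4T1 shPBRM1 and pLKO at 4 d. Red is higher and blue is lower, with colours cut at ±1.5, a cross marks a value that did not pass and grey a gene not tested. The NMuMG columns are mostly red, with Herpud1 blue in most of them, and the 4T1 columns are mostly blue among the lumenal chaperones.

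The sensors and transcription factors rose as a role, with 4 of 5 higher at 24 h in both genotypes and 5 of 5 at 72 h. Creb3l1 (ENSMUSG00000027230, chromosome 2, 91982328 to 92024502, GRCm38) changed most. Its level in sgPBRM1 libraries was 0.834, 0.993 and 0.795 CPM at 0 h, 8.83, 9.5 and 9.48 CPM at 24 h, 33.3, 29.8 and 31.0 CPM at 48 h and 56.9, 60.7 and 57.4 CPM at 72 h. In sgCT libraries it was 1.123, 1.52 and 1.38 CPM at 0 h, 7.38, 7.96 and 7.93 CPM at 24 h, 15.0, 13.3 and 12.2 CPM at 48 h and 18.6, 20.02 and 19.2 CPM at 72 h. Every later group lay above every earlier one in both genotypes, with no overlap of libraries. At 72 h the rise was a log2 fold change of 6.05 in sgPBRM1 (SE 0.116, adjusted p = 8.92e-48) and 3.84 in sgCT cells (SE 0.129, adjusted p = 5.87e-35). Creb3l2, its close relative, rose less. It averaged 101 ± 5.76, 233 ± 6.89, 254 ± 6.20 and 241 ± 12.5 CPM in sgPBRM1 cells over the 4 times, and 95.1 ± 4.62, 193 ± 3.57, 193 ± 4.89 and 171 ± 1.10 CPM in sgCT cells. Xbp1, whose spliced mRNA makes the active factor, averaged 96.1 ± 3.64 and 177 ± 2.36 CPM at 0 and 48 h in sgPBRM1 cells and 92.8 ± 3.04 and 149.8 ± 9.11 CPM in sgCT cells. Counts per gene cannot show its splicing. Ern1, the IRE1α sensor that does the splicing, rose by 0.83 in sgPBRM1 and 0.46 in sgCT cells at 72 h on the log2 scale. Atf6 was the exception, as it was lower at 24 h in sgCT cells (log2 fold change −0.28 with SE 0.0389, adjusted p = 5.21e-09) and higher at 72 h in both genotypes (0.30 in sgPBRM1, 0.26 in sgCT).

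All 5 export and retrieval genes rose at 24 and 48 h in both genotypes, and 4 of 5 at 72 h. Sec24d, a cargo-binding COPII coat subunit needed for collagen export, had 39.1, 40.2 and 39.6 CPM at 0 h and 68.2, 67.5 and 70.6, 109.5, 108 and 107 and 96.8, 99.4 and 97.7 CPM at 24, 48 and 72 h in sgPBRM1 libraries. In sgCT libraries it had 31.8, 34.6 and 33.7 CPM at 0 h and 61.5, 62.5 and 58.2, 79.1, 83.8 and 79.1 and 76.2, 73.7 and 68.6 CPM at the later times. All treated libraries lay above all untreated ones, and 48 h was the highest time in both genotypes. Its partner Sec23a and the KDEL receptor Kdelr3, which returns escaped chaperones from the Golgi, rose too. At 48 h, Sec23a rose by 1.16 in sgPBRM1 and 0.93 in sgCT cells, and Kdelr3 by 1.71 in sgPBRM1 and 1.2 in sgCT cells, on the log2 scale. At 72 h Sec23a stood at 1.18 in sgPBRM1 and 1.0 in sgCT cells over 0 h. Mia3 (TANGO1), the collagen cargo receptor at ER exit sites, rose less, by 0.31 in sgPBRM1 and 0.26 in sgCT cells at 48 h. The rise of Mia3 did not pass on the scale of library totals alone at 24 h (0.09 in sgPBRM1, adjusted p = 0.0562, and 0.07 in sgCT, adjusted p = 0.134) or 72 h (0.02 in both, adjusted p = 0.703 in sgPBRM1 and 0.714 in sgCT). The translocon gene Sec61b rose by 0.46 in sgPBRM1 and 0.31 in sgCT cells at 48 h.

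The lumenal chaperones rose and then turned. In sgPBRM1 cells 8 of 9 rose and none fell at 24 h, and 6 rose and 3 fell at 72 h. In sgCT cells 7 rose and none fell at 24 h, and 6 rose and 3 fell at 72 h. Hspa5 (ENSMUSG00000026864, chromosome 2, 34771970 to 34777547), which encodes BiP, the main HSP70 of the ER, had 588, 581 and 587 CPM at 0 h, 1108, 1108 and 1116 CPM at 24 h, 1131, 1148 and 1152 CPM at 48 h and 837, 812 and 853 CPM at 72 h in sgPBRM1 libraries. In sgCT libraries it had 710.0, 726 and 727 CPM at 0 h, 1145, 1146 and 1140.5 CPM at 24 h, 1221, 1217 and 1204 CPM at 48 h and 1017, 1013 and 1048 CPM at 72 h. The 48 h libraries were the highest and the 72 h libraries lay between them and the untreated ones. Hsp90b1, which encodes the ER HSP90 GRP94, had a log2 fold change of 0.21 at 48 h and −0.31 at 72 h in sgPBRM1 cells, and 0.25 at 48 h and −0.11 at 72 h in sgCT cells, all of which passed. With library totals alone the 48 h rise in sgPBRM1 cells was 0.05 and did not pass (adjusted p = 0.0688). Sdf2l1, a BiP cofactor, had 22.8, 24.4 and 23.9 CPM at 0 h and 11.2, 10.4 and 10.3 CPM at 72 h in sgPBRM1 libraries, and 28.3, 30.6 and 30.0 CPM at 0 h and 23.0, 19.8 and 21.0 CPM at 72 h in sgCT libraries. Its fall at 72 h was a log2 fold change of −1.15 in sgPBRM1 (SE 0.0777) and −0.48 in sgCT cells (SE 0.0679). Creld2, a secreted ER stress protein, fell by 0.51 in sgPBRM1 and 0.54 in sgCT cells at 72 h on the log2 scale.

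The change from 48 to 72 h was then tested directly, a comparison chosen after these values were seen. At 72 h 24 members were lower and 2 higher than at 48 h in sgPBRM1 cells, where 36.8% of all genes were called, and 24 were lower and 3 higher in sgCT cells, where 33.1% were called. The lumenal chaperones made up 8 of those lower in each genotype, and none was higher. In sgPBRM1 cells Sdf2l1 fell by 0.96, Creld2 by 0.62, Hsp90b1 by 0.53 and Hspa5 by 0.46 on the log2 scale. In sgCT cells Creld2 fell by 0.58, Sdf2l1 by 0.50, Hsp90b1 by 0.37 and Hspa5 by 0.24. Creb3l1 went the other way, by 0.90 in sgPBRM1 and 0.52 in sgCT cells.

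Among the folding enzymes and lectins, 6 of 7 rose in both genotypes at 24 h, and 5 of 7 at 72 h. Pdia4, a disulfide isomerase, rose by 0.56 in sgPBRM1 and 0.76 in sgCT cells at 48 h. Ero1l, the oxidase that recharges the disulfide isomerases, was the exception at 24 h. It had 112, 126 and 112 CPM at 0 h and 65.3, 63.7 and 65.0 CPM at 24 h in sgPBRM1 libraries, and 99.9, 91.2 and 86.2 CPM at 0 h and 49.0, 48.5 and 46.5 CPM at 24 h in sgCT libraries. The groups did not overlap, and the fall was a log2 fold change of −0.85 in sgPBRM1 and −0.95 in sgCT cells.

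In ERAD the genes split. Herpud1, a scaffold of the degradation complex and otherwise a typical stress-induced gene, fell at all 3 times in both genotypes. It had 117, 115 and 114 CPM at 0 h and 47.7, 50.1 and 50.2, 75.7, 72.6 and 73.1 and 45.8, 53.2 and 45.8 CPM at 24, 48 and 72 h in sgPBRM1 libraries. In sgCT libraries it had 110.2, 114 and 109 CPM at 0 h and 53.0, 50.7 and 51.5, 50.04, 50.5 and 51.4 and 52.6, 51.0 and 52.8 CPM at the later times. All treated libraries lay below all untreated ones. The mannosidase-like lectin Edem1 and the adaptor Sel1l rose instead, Edem1 by 0.22 in sgPBRM1 and 0.28 in sgCT cells at 72 h, and Sel1l by 0.75 in sgPBRM1 and 0.84 in sgCT cells. With library totals alone the rise of Edem1 in sgPBRM1 cells did not pass (0.03, adjusted p = 0.439).

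**Figure D2:**
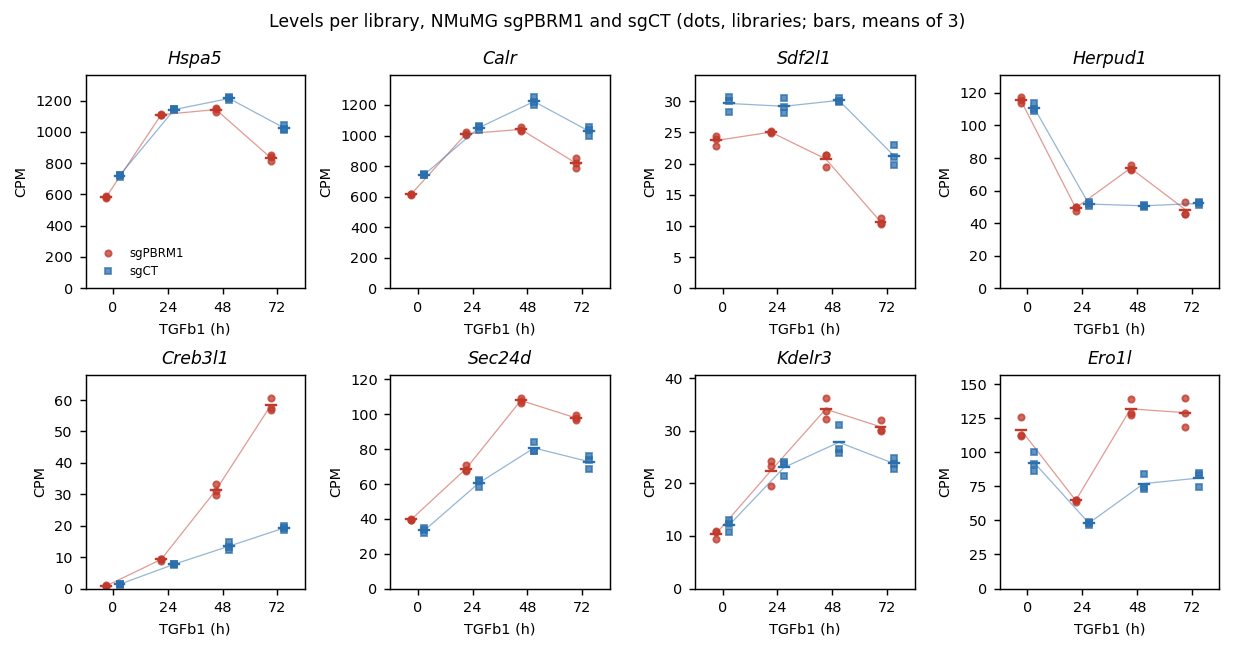
Level (CPM, linear axis from 0) of 8 members in each library of NMuMG sgPBRM1 (red, left) and sgCT cells (blue, right) at 0, 24, 48 and 72 h of TGFβ1, with a bar at the mean of 3 libraries. Hspa5 libraries are highest at 48 h in both genotypes, Herpud1 libraries lie below 0 h at every later time, and Creb3l1 in sgPBRM1 cells reaches 56.9 to 60.7 CPM at 72 h, above 18.6 to 20.02 CPM in sgCT cells.

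Between genotypes the members divided by role. The lumenal chaperones were lower in sgPBRM1 than in sgCT cells, while several export genes and transcription factors were higher under TGFβ1. At 0 h 8 members were higher and 16 lower in sgPBRM1 cells, and 45.1% of all genes were called. At 24 h 14 were higher and 11 lower (46.8% of all genes), at 48 h 16 and 14 (50%), and at 72 h 15 and 16 (49.9%). At each time the share of members called was above that of all genes, again not matched for level, and the medians, from −0.06 to 0.07, were near 0. Of the 9 lumenal chaperones, none was higher and 8 were lower at 0 h, 0 and 5 at 24 h, 1 and 8 at 48 h, and 0 and 8 at 72 h. Of the 5 export genes, 3 were higher and 1 lower at 0, 24 and 48 h, and 4 and 0 at 72 h. Epithelial markers also differed, with 4 of 6 lower and 1 higher in sgPBRM1 cells at 72 h. Krt7 had a log2 fold change of −3.64, while Cdh1, an epithelial gene, averaged 455 CPM in sgPBRM1 and 381 CPM in sgCT cells. The part of these markers in the members' values was not tested.

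At 72 h Hspa5 stood at 837, 812 and 853 CPM in sgPBRM1 libraries, against 1017, 1013 and 1048 CPM in sgCT libraries (log2 fold change −0.30 with SE 0.0237, adjusted p = 9.2e-17). At 0 h the difference was −0.30 and at 24 h −0.04, so BiP mRNA was closest between genotypes after 24 h of TGFβ1. Sdf2l1 differed by −1.0 at 72 h (SE 0.081, adjusted p = 2.54e-16), Hsp90b1 by −0.44, Creld2 by −0.33, and Hyou1, an ER nucleotide exchange factor of the HSP110 kind, by −0.41. Manf, a secreted ER stress protein, was −0.40, but its span in the genome holds the same-strand gene Rbm15b and its counts are uncertain. Of the folding enzymes, Pdia4 was lower (−0.35), while Ppib, a collagen prolyl isomerase, was higher at every time (0.43 at 0 h, 0.51 at 48 h). Ppib overlaps Snx22 on the other strand, and no source used here gives the strand setting of the NMuMG counting.

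Creb3l1 at 72 h had 56.9, 60.7 and 57.4 CPM in sgPBRM1 libraries, against 18.6, 20.02 and 19.2 CPM in sgCT libraries, with no overlap (log2 fold change 1.60 with SE 0.0698, adjusted p = 2.94e-28). At 0 h it was lower in sgPBRM1 cells (log2 fold change −0.61 with SE 0.246, adjusted p = 0.0403), at about 1 CPM in both genotypes. That call was lost without the filter on low counts (adjusted p = 0.123), with only the groups compared (0.112), with library totals alone (0.0511) and without each of 4 libraries in turn. Creb3l2 at 72 h had 226, 249 and 247 CPM in sgPBRM1 and 172, 169.7 and 171 CPM in sgCT libraries (log2 fold change 0.50 with SE 0.0358, adjusted p = 1.91e-18). Ern1 was higher by 0.37 and Atf6 was lower (−0.24). Xbp1 stood at 0.12, a call that was lost with library totals alone (adjusted p = 0.0681) and without replicate 2 of sgPBRM1 (adjusted p = 0.149). Sec24d was higher by 0.43 (SE 0.0423), Kdelr3 by 0.37 (SE 0.0782) and Ero1l by 0.67 (SE 0.0523). Mia3 did not pass (−0.08, adjusted p = 0.113), and Sec61b was lower (−0.16, adjusted p = 0.0108) except without replicate 3 of sgPBRM1 (adjusted p = 0.0509). In ERAD, Edem1 was higher by 0.18 and the ubiquitin ligase gene Syvn1 lower (−0.22). Herpud1 had 75.7, 72.6 and 73.1 CPM in sgPBRM1 and 50.04, 50.5 and 51.4 CPM in sgCT libraries at 48 h (0.54, SE 0.0456).

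**Figure D3:**
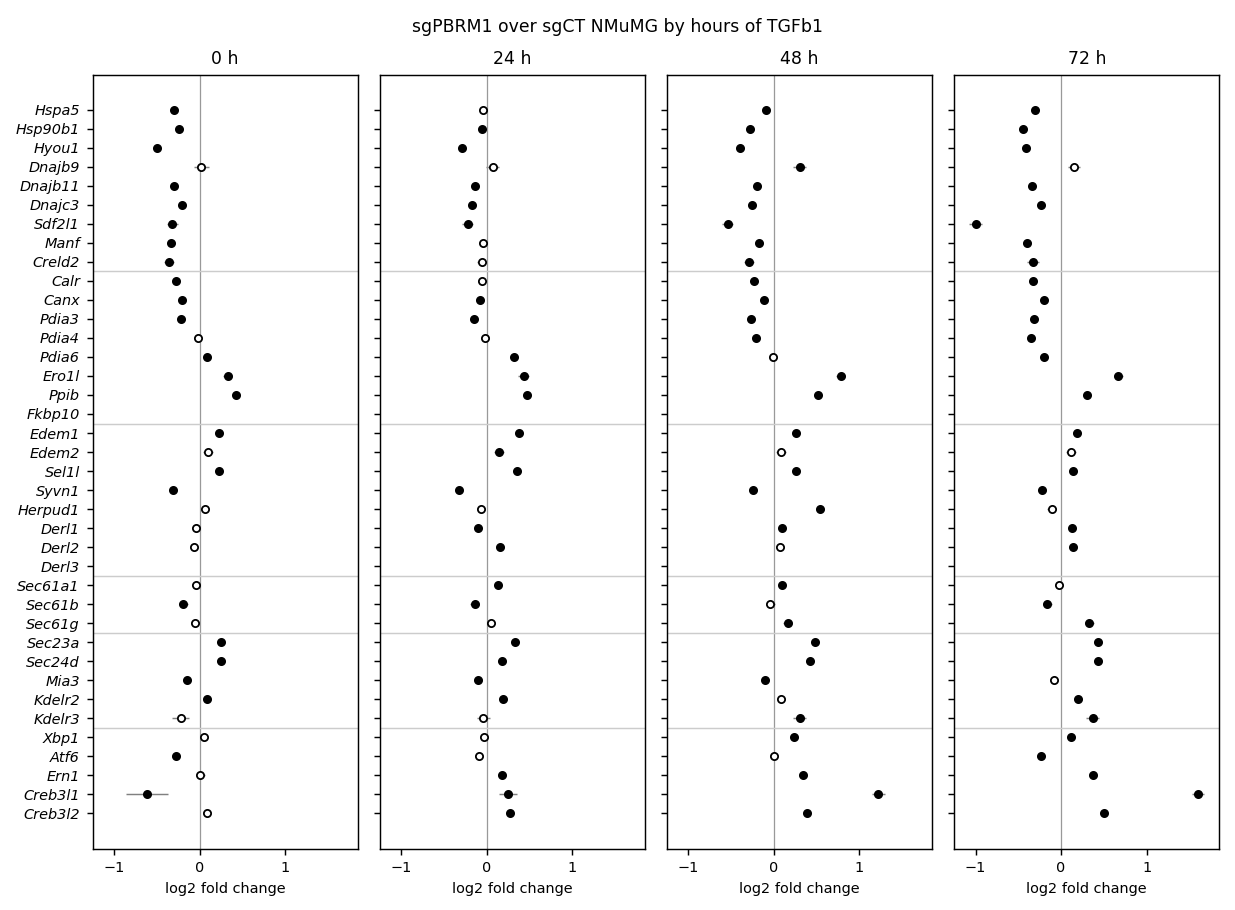
Log2 fold change ± SE (horizontal axis) of each member (rows, by role) in NMuMG sgPBRM1 over sgCT cells, in 1 panel each for 0, 24, 48 and 72 h of TGFβ1. Filled points passed, open points did not, and an empty row was not tested. The lumenal chaperones at the top lie mostly left of 0 in all 4 panels, with Sdf2l1 at −1.0 at 72 h, and Creb3l1 lies at −0.61 at 0 h and 1.60 at 72 h.

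The interaction test asks whether the 72 h change under TGFβ1 was larger or smaller in sgPBRM1 than in sgCT cells. It was called higher for 10 members and lower for 6, against 27.4% of all genes called in either direction. Creb3l1 rose more in sgPBRM1 cells (2.21, SE 0.258, adjusted p = 2.62e-10), as did Kdelr3 (0.59), Creb3l2 (0.41), Ern1 (0.36) and Sec24d (0.18). The call of Sec24d was lost with DESeq2 (adjusted p = 0.0542), with library totals alone (0.11, adjusted p = 0.224), without the filter on low counts (adjusted p = 0.0925), with only the groups compared (adjusted p = 0.0551) and without 9 of the 12 libraries in turn. Sdf2l1 fell further (−0.68, SE 0.104), as did Hsp90b1 (−0.20), and Pdia4 rose less (−0.33). With library totals alone as the scale, the split of the 16 called members turned to 6 higher and 10 lower, and that of all called genes from 42.4% to 26.1% higher.

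In the second experiment the broad rise under TGFβ1 was seen again in other libraries of NMuMG cells. Of 37 members tested, 30 rose and none fell at 24 h, 28 rose and 2 fell at 48 h, and 30 rose and 2 fell at 72 h in the libraries labelled shATF3. In pLKO libraries 28 rose and 1 fell at 24 h, 27 rose and 2 fell at 48 h, and 28 rose and 2 fell at 72 h. Of all genes tested, 49.3%, 48.6% and 54.4% were called in shATF3 and 53.4%, 53.8% and 58% in pLKO cells at these times. The members' median was 0.53, 0.42 and 0.45 in shATF3 and 0.47, 0.42 and 0.36 in pLKO cells. Without replicate 2 of shATF3 at 72 h, 31 members rose and 1 fell there. Epithelial markers summed to 5674, 9032, 4735 and 4378 CPM in shATF3 and 7237, 9573, 6102 and 6132 CPM in pLKO cells at 0, 24, 48 and 72 h, and their part was not tested.

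Creb3l1 again changed most. It had 1.25, 0.904 and 0.352 CPM at 0 h and 8.56, 6.98 and 5.86, 14.4, 13.6 and 11.0 and 20.6, 24.9 and 22.2 CPM at 24, 48 and 72 h in shATF3 libraries. In pLKO libraries it had 0.561, 0.963 and 0.821 CPM at 0 h and 8.12, 10.9 and 8.32, 10.6, 12.9 and 16.0 and 23.8, 25.6 and 26.1 CPM at the later times. The treated libraries lay above all untreated ones in both. At 72 h the log2 fold change was 4.71 in shATF3 (SE 0.235) and 4.99 in pLKO cells (SE 0.233). Sec24d had 31.6, 28.0 and 27.2 CPM at 0 h and 111, 120.3 and 106 CPM at 72 h in shATF3 libraries, and 37.5, 40.0 and 41.5 CPM at 0 h and 99.6, 98.6 and 102 CPM at 72 h in pLKO libraries. Hspa5 averaged 818 ± 15.3, 1562 ± 58.1, 1186 ± 19.2 and 1186 ± 28.3 CPM over the 4 times in shATF3 cells and 741 ± 21.1, 1347 ± 79.9, 1175 ± 47.0 and 1149 ± 2.87 CPM in pLKO cells.

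At 72 h Hsp90b1 rose by 0.27 in shATF3 and 0.32 in pLKO cells, Pdia4 by 0.43 in shATF3 and 0.60 in pLKO cells, Edem1 by 0.48 in shATF3 and 0.35 in pLKO cells, and Mia3 by 0.27 in shATF3 and 0.24 in pLKO cells. With library totals alone neither change of Mia3 passed (0.11 in shATF3, 0.08 in pLKO), nor did that of Hsp90b1 in shATF3 cells (0.11). Kdelr3 rose by 0.71 in shATF3 and 0.88 in pLKO cells, and Ern1 by 0.60 in shATF3 and 0.73 in pLKO cells. Creb3l2 rose by 0.90 in shATF3 and 1.14 in pLKO cells. Herpud1 fell again, by 0.41 in shATF3 and 0.30 in pLKO cells, which was less than in the first experiment, a difference not tested. Creld2 stood at −0.26 in shATF3 and −0.22 in pLKO cells, and both calls were lost without single libraries, down to −0.18 without replicate 2 of shATF3 at 72 h (adjusted p = 0.0965) and −0.17 without replicate 2 of pLKO at 0 h (adjusted p = 0.135). Xbp1 rose by 0.49 in shATF3 and 0.82 in pLKO cells, and Atf6 by 0.31 in shATF3 and 0.43 in pLKO cells. Ero1l rose by 0.57 in shATF3 cells, and its value of 0.33 in pLKO cells did not pass. In shATF3 cells neither Atf6 (adjusted p = 0.0561) nor Ero1l (adjusted p = 0.0555) passed with library totals alone. Sdf2l1 did not pass at 72 h (−0.23 in shATF3, −0.09 in pLKO), nor did Sec61b (0.31 in shATF3, 0.29 in pLKO).

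The fall of the chaperones between 48 and 72 h was not seen in this experiment. From the earliest treated time to 48 h, mean Hspa5 went from 1562 to 1186 CPM in shATF3 and 1347 to 1175 CPM in pLKO. The lumenal chaperones' median log2 fold change over untreated cells was also lower at 48 h than at that time. It went from 0.65 to 0.53 in shATF3 and from 0.47 to 0.43 in pLKO cells. That earlier change was not tested. At 72 h 8 members were higher and 4 lower than at 48 h in shATF3 libraries (21.6% of all genes called), and 4 higher and 1 lower in pLKO libraries (14.7%). Of the 9 lumenal chaperones 1 was higher and 1 lower in shATF3, and none was called in pLKO, where Hspa5 stood at −0.03 (SE 0.0436). With only the groups compared in the fit, 7 members were called in shATF3. Whether the 2 experiments differ in this was not tested, since each has a count table of its own.

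Between the libraries labelled shATF3 and pLKO the ERAD genes that passed were almost all lower, and the other roles were mixed. At 0 h 10 members were higher and 12 lower in shATF3 (37% of all genes called), at 24 h 15 and 7 (31.8%), at 48 h 8 and 8 (25.6%), and at 72 h 11 and 11 (30.5%). Of the 8 ERAD genes, 0 were higher and 6 lower at 0 h, 1 and 4 at 24 h, 0 and 5 at 48 h, and 0 and 5 at 72 h. Of the 9 lumenal chaperones 3 were higher and 1 lower at 0 h. Without replicate 1 of shATF3 at 0 h, 10 members were higher and 10 lower there. At 72 h the count was 17 without replicate 2 of shATF3 (10 higher, 7 lower) and 13 with only the groups compared. The lower genes that no longer passed without that replicate were Sdf2l1, Herpud1, Sec61g and Xbp1.

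Pdia3 (ENSMUSG00000027248, chromosome 2, 121413775 to 121438687), the disulfide isomerase that works with calreticulin and calnexin on glycoproteins, differed most at 0, 24, 48 and 72 h among the called members that averaged at least 1 CPM. It had 380.4, 362 and 375 CPM in shATF3 and 903, 890.2 and 853 CPM in pLKO libraries at 0 h, and 539.8, 564 and 553 CPM in shATF3 and 1264, 1152 and 1267 CPM in pLKO libraries at 72 h. The groups did not overlap at either time, and the log2 fold change was −1.24 at 0 h (SE 0.0436, adjusted p = 1.15e-17) and −1.15 at 72 h. Under TGFβ1 it rose in both, by 0.57 in shATF3 and 0.48 in pLKO cells at 72 h. Atf3 mRNA at 0 h averaged 12.3 CPM in shATF3 and 9.95 CPM in pLKO libraries, and whether it bears on Pdia3 was not tested.

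Edem1 had 53.4, 55.0 and 59.0 CPM in shATF3 and 81.8, 87.9 and 82.1 CPM in pLKO libraries at 0 h (log2 fold change −0.59 with SE 0.058, adjusted p = 4.83e-09) and stayed lower at every time. Derl3, with at most 14 counts in a library, stood at −1.52 at 0 h (SE 0.574, adjusted p = 0.0383). That call was lost with DESeq2 (adjusted p = 0.0589), without the filter on low counts (0.17), with only the groups compared (0.0515) and without 5 of the 6 libraries in turn. Ero1l was lower at 0 h (−0.65, SE 0.181). Atf6 went the other way, with 138, 121 and 119 CPM in shATF3 and 87.8, 87.7 and 81.1 CPM in pLKO libraries at 0 h (log2 fold change 0.56 with SE 0.0753, adjusted p = 9.12e-07), and stayed higher at every time. Creb3l2 was higher by 0.70 at 0 h, Pdia4 by 0.40 and Hsp90b1 by 0.23. Kdelr3 stood at 0.32 and Ern1 at −0.19 at 0 h, and each of these calls was lost without any of 3 libraries taken in turn. That of Ern1 was also lost without the filter on low counts (adjusted p = 0.1) and with only the groups compared (adjusted p = 0.0524). Ern1 was also lower at 72 h (−0.32). Creld2 (−0.06, adjusted p = 0.643), Sec61b (−0.13, 0.584) and Mia3 (−0.13, 0.162) did not pass at 0 h. Herpud1 stood at −0.08 (adjusted p = 0.344), Sec24d at −0.45 (adjusted p = 1.34e-06) and Hspa5 at 0.14 (adjusted p = 0.0107) at 0 h.

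The TGFβ1 change at 72 h differed between the shATF3 and pLKO libraries for 3 of 37 members tested, a smaller share than the 12.9% of all genes. Sec24d rose more in shATF3 (0.62, SE 0.0839), and Pdia6 (−0.37) and Xbp1 (−0.33) rose less. Without replicate 2 of shATF3 at 72 h, 7 members were called, 3 higher and 4 lower.

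**Figure D4:**
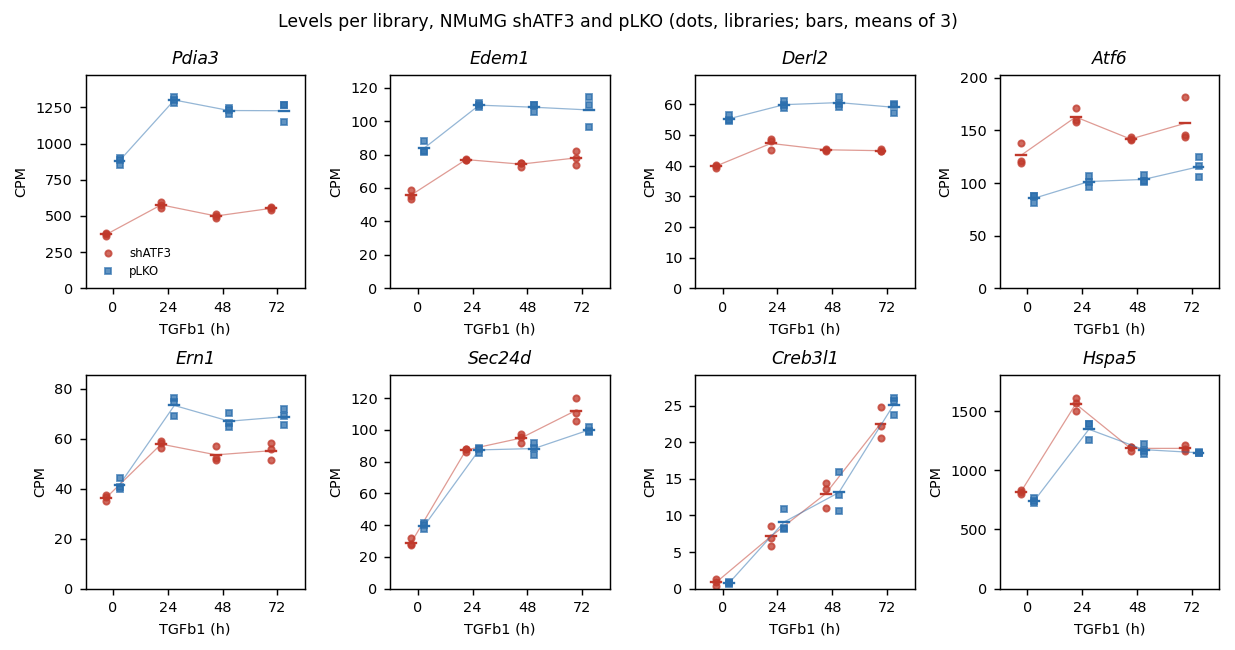
Level (CPM, linear axis from 0) of 8 members in each library of NMuMG labelled shATF3 (red, left) and pLKO (blue, right) at 0, 24, 48 and 72 h of TGFβ1, with a bar at the mean of 3 libraries. Pdia3 in shATF3 libraries stays below pLKO libraries at all 4 times, Atf6 stays above, and Creb3l1 rises in both.

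In 4T1 cells the lumenal chaperones mostly fell under TGFβ1, while the sensors and transcription factors mostly rose. Of 35 members tested, 11 rose and 16 fell after 4 d of TGFβ1 in shPBRM1 cells, where 70% of all genes were called, and 13 rose and 19 fell in pLKO cells, where 74.5% were called. The members' median was −0.04 in shPBRM1 and −0.14 in pLKO cells. Of the 9 lumenal chaperones 1 rose and 7 fell in each genotype, and of the 7 folding enzymes tested 2 rose and 4 fell in shPBRM1 and 3 rose and 4 fell in pLKO cells. Of the 4 sensors and transcription factors tested, 3 rose in shPBRM1 and 4 in pLKO cells, and none fell. The libraries, kit and time differ from those of NMuMG, so the values are given side by side and the difference between the lines was not tested. Epithelial markers, all 6 over 1 CPM, summed to 4223 CPM at 4 d and 4585 CPM at 0 d in shPBRM1 cells and to 3988 CPM at 4 d and 4841 CPM at 0 d in pLKO cells, and their part was not tested.

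Dnajb11, a BiP co-chaperone, had 45.9, 41.5 and 39.2 CPM at 4 d and 81.5, 80.5 and 77.7 CPM at 0 d in shPBRM1 libraries, and 41.6, 37.7 and 41.5 CPM at 4 d and 88.4, 86.0 and 85.4 CPM at 0 d in pLKO libraries. The groups did not overlap, and the log2 fold change was −0.91 in shPBRM1 (SE 0.0452) and −1.11 in pLKO cells (SE 0.0458). Calr, the lectin chaperone calreticulin, fell by 0.71 in shPBRM1 and 0.86 in pLKO cells. Creld2 fell by 0.65 in shPBRM1 and 0.74 in pLKO cells, and Hyou1 by 0.63 in shPBRM1 and 0.79 in pLKO cells. Hspa5 had 1268, 1231 and 1219.8 CPM at 4 d and 1573, 1592 and 1585 CPM at 0 d in shPBRM1 libraries, and 999.6, 1002 and 1071 CPM at 4 d and 1489, 1467 and 1489.7 CPM at 0 d in pLKO libraries. Its log2 fold change was −0.35 in shPBRM1 (adjusted p = 6.15e-15) and −0.53 in pLKO cells (adjusted p = 4.93e-20). Sdf2l1 stood at −0.32 in shPBRM1 and −0.79 in pLKO cells, Hsp90b1 at 0.03 in shPBRM1 and −0.18 in pLKO cells, and Pdia4 at −0.01 in shPBRM1 and 0.11 in pLKO cells, of which the values of Hsp90b1 and Pdia4 in shPBRM1 cells did not pass. The call of Pdia4 in pLKO cells was lost without the filter on low counts (0.07, adjusted p = 0.104).

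Creb3l2 had 111, 124 and 126 CPM at 4 d and 36.0, 32.4 and 33.1 CPM at 0 d in shPBRM1 libraries, and 107, 109 and 103 CPM at 4 d and 38.3, 36.0 and 33.9 CPM at 0 d in pLKO libraries. It was the largest rise among the members in both genotypes (1.83 in shPBRM1, 1.56 in pLKO), in cells where its relative Creb3l1 had 0 counts. Ero1l rose by 0.97 in shPBRM1 and 0.92 in pLKO cells, Xbp1 by 0.71 in shPBRM1 and 0.39 in pLKO cells, and Ern1 by 0.52 in shPBRM1 and 0.81 in pLKO cells. Atf6 stood at −0.02 in shPBRM1 (adjusted p = 0.534) and 0.19 in pLKO cells (adjusted p = 1.87e-06). The export genes did not rise together as in NMuMG cells. Sec23a rose by 0.67 in shPBRM1 and 0.70 in pLKO cells, Sec24d stood at −0.09 in shPBRM1 and −0.12 in pLKO cells, and Kdelr3 stood at 0.65 in shPBRM1 and 0.32 in pLKO cells. The fall of Sec24d in shPBRM1 cells was lost without replicate 3 at 4 d (adjusted p = 0.0839) and with library totals alone (adjusted p = 0.0563). Mia3 did not pass in either genotype (0.02 in shPBRM1, −0.04 in pLKO). Herpud1 fell by 0.47 in shPBRM1 and 0.38 in pLKO cells, and Edem1 rose by 0.30 in shPBRM1 and 0.10 in pLKO cells, the last of which did not pass without the filter on low counts (0.07, adjusted p = 0.186).

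**Figure D5:**
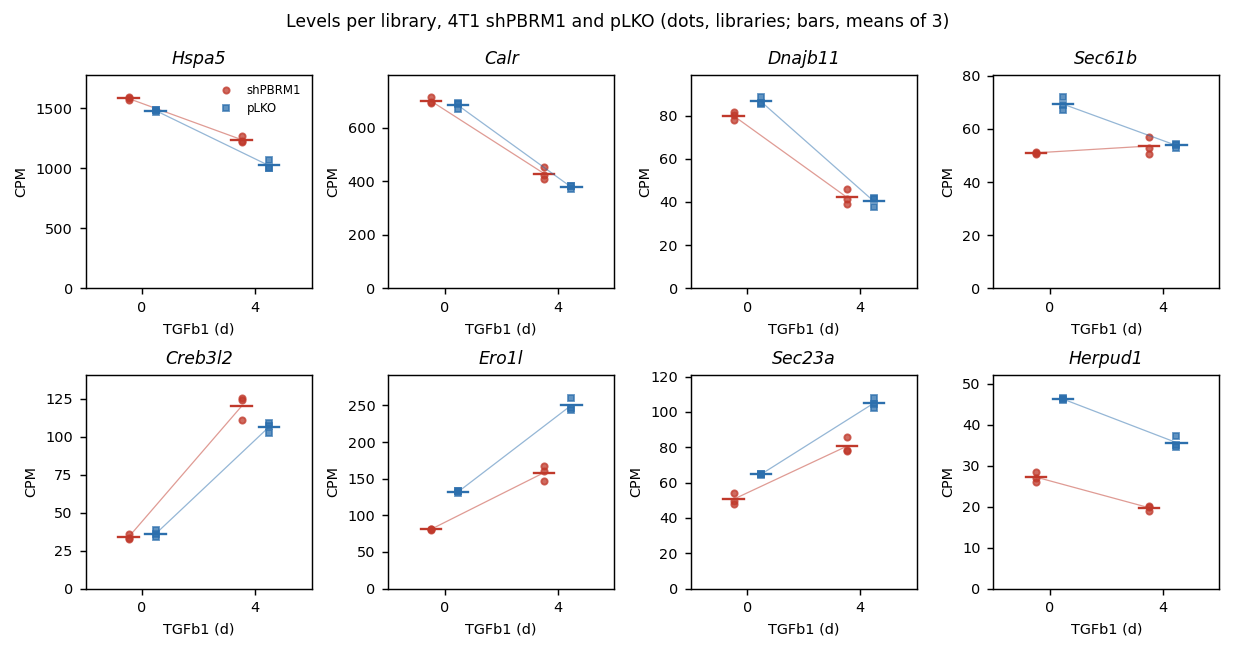
Level (CPM, linear axis from 0) of 8 members in each library of 4T1 shPBRM1 (red, left) and pLKO cells (blue, right) at 0 and 4 d of TGFβ1, with a bar at the mean of 3 libraries. Dnajb11 and Calr libraries lie lower at 4 d in both genotypes, Creb3l2 and Ero1l libraries lie higher, and Herpud1 is lower in shPBRM1 than in pLKO libraries at both times.

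Without TGFβ1 the members were mostly lower in shPBRM1 than in pLKO 4T1 cells, with 6 higher and 19 lower against 51% of all genes called. Of the lumenal chaperones 1 was higher and 6 lower, and 4 of 5 export genes were lower. At 4 d 11 were higher and 13 lower (55.2% of all genes called), with 3 chaperones higher and 3 lower. Herpud1 had 27.1, 26.1 and 28.5 CPM in shPBRM1 and 46.6, 46.2 and 45.9 CPM in pLKO libraries at 0 d (log2 fold change −0.76 with SE 0.0498, adjusted p = 6.8e-15), and 19.0, 20.01 and 20.2 CPM in shPBRM1 and 34.9, 37.3 and 34.6 CPM in pLKO libraries at 4 d. Ero1l was lower at both times (−0.71 at 0 d, −0.66 at 4 d), where in NMuMG cells it was higher in sgPBRM1. Xbp1 (−0.58) and Sdf2l1 (−0.68) were lower at 0 d. Kdelr2, another KDEL receptor, was lower at both times (−0.50 at 0 d, −0.48 at 4 d). Hspa5 stood at 0.10 at 0 d (adjusted p = 0.00131) and was higher by 0.28 at 4 d. Hsp90b1 (−0.32 at 0 d, −0.11 at 4 d) and Pdia4 (−0.12 at 0 d, −0.23 at 4 d) were lower at both times. The first of these values of Pdia4 did not pass with library totals alone (−0.07, adjusted p = 0.0665). Sec61b had 51.0, 50.7 and 51.4 CPM in shPBRM1 and 69.0, 67.2 and 71.9 CPM in pLKO libraries at 0 d. With library totals alone as the scale, the split at 4 d was 16 higher and 10 lower, and that of all called genes 61.6% higher instead of 50.5%.

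The TGFβ1 change at 4 d was called higher in shPBRM1 than in pLKO cells for 17 members and lower for 5, against 28.3% of all genes called in either direction. Of the lumenal chaperones 6 were higher and 2 lower. Sdf2l1 differed by 0.47 (SE 0.137), Sec61b by 0.44 and Hsp90b1 by 0.21. For Sec61b this was a fall in pLKO cells (−0.37, adjusted p = 1.17e-09) against 0.07 in shPBRM1 cells (adjusted p = 0.123). The interaction shares its libraries with the comparisons between genotypes and is no separate evidence.

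The members were also split by promoter element, a split made after the values were seen and given as counts with no test. Between sgPBRM1 and sgCT cells, the 8 tested members with the first stress element counted 1 higher and 7 lower at 0 h, 1 and 4 at 24 h, 0 and 7 at 48 h, and 0 and 8 at 72 h. The 3 export genes with the core element (Sec23a, Sec24d and Kdelr3) counted 2 higher at 0 and 24 h and 3 higher at 48 and 72 h, and none lower. The 16 matched members with neither element nor the second one counted 9 higher and 4 lower at 72 h. Between 72 and 48 h of TGFβ1, all 8 with the first element fell in both sgPBRM1 and sgCT cells, while 1 rose and 8 fell of the 16 with no element in each. Of the 2 with the second element, 2 fell in sgPBRM1 and 1 in sgCT cells. The 3 with the core counted 1 lower in sgPBRM1 and 2 in sgCT cells, and none of either kind rose. Of all genes, 36.8% were called in sgPBRM1 and 33.1% in sgCT cells. In the second experiment the late fall of members with the first element was not seen. There the 9 tested with it counted 0 higher and 1 lower at 72 against 48 h in shATF3 and 1 higher and 0 lower in pLKO cells. Nor was the genotype split seen in shPBRM1 against pLKO 4T1 cells. There the members with the first element counted 2 higher and 3 lower at 0 d and 4 and 3 at 4 d, and those with the core element 0 and 2 at 0 d and 0 and 1 at 4 d. Between shATF3 and pLKO cells the first element counted 3 higher and 2 lower at 0 h and 4 and 1 at 72 h. Under TGFβ1 in 4T1 at 4 d, those with the first element counted 1 higher and 5 lower in shPBRM1 and 2 higher and 5 lower in pLKO cells. The first element lies mostly in chaperone and folding genes, so role and element cannot be told apart here. The share of all genes called in each of these comparisons is given above with that comparison.

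Other genes of the pathway were examined as 3 lists. Of all genes tested, 71.1% were called at 72 h in sgPBRM1, 69.3% in sgCT, 54.4% in shATF3 and 58% in pLKO cells of NMuMG. At 4 d it was 70% in shPBRM1 and 74.5% in pLKO 4T1 cells. Between sgPBRM1 and sgCT it was 45.1%, 46.8%, 50% and 49.9% at 0, 24, 48 and 72 h. It was 37% and 30.5% between shATF3 and pLKO at 0 and 72 h, and 51% and 55.2% between shPBRM1 and pLKO at 0 and 4 d. Of 10 genes listed under the PERK arm, the translation-control branch of the unfolded protein response, 5 rose and 4 fell at 72 h in sgPBRM1 cells and 5 rose and 3 fell in sgCT cells. Their RNA counts do not measure PERK activity. Between genotypes the list turned with time. In sgPBRM1 cells 1 was higher and 4 lower at 0 h, 1 and 6 at 24 h, 6 and 1 at 48 h, and 1 and 9 at 72 h, with medians of −0.09, −0.20, 0.29 and −0.32. Nupr1, a stress-induced chromatin protein, was higher by 1.68 at 72 h. Between shATF3 and pLKO 3 were higher and 4 lower at 0 h, and 2 and 3 at 72 h. In 4T1 cells 8 of the 10 were lower in shPBRM1 than in pLKO at 0 d and 7 at 4 d, with none higher at either time, among them at 0 d Chac1 (−1.70), Trib3 (−1.42) and Sesn2 (−1.26). Of 42 other genes of ER folding, translocation and quality control, 29 rose and 8 fell at 72 h in sgPBRM1 cells, 28 rose and 7 fell in sgCT cells, 31 rose and 2 fell of 41 tested in shATF3 cells and 32 rose and 2 fell in pLKO cells. In 4T1 at 4 d 14 of the 42 rose and 19 fell in shPBRM1 cells, and 15 rose and 19 fell in pLKO cells. Of 21 other COPII, COPI and retrieval genes, 14 rose and 4 fell at 72 h in sgPBRM1 cells, 16 rose and 5 fell in sgCT cells, 19 rose and none fell in shATF3 cells and 14 rose and 1 fell in pLKO cells of NMuMG. In 4T1 at 4 d 5 of the 21 rose and 10 fell in shPBRM1 cells, and 8 rose and 10 fell in pLKO cells.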

How the data were processed

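The deposited tables hold read counts per gene for 60 libraries, with symbols, identifiers and coordinates, per the file headers. A company did the library work and processing for NMuMG, and a stranded mRNA kit was used for 4T1, per the labels' protocols. HISAT2, STAR 2.7.10a, Trim Galore 0.6.7, edgeR, DESeq2 and mm10 appear in the submitters' processing notes, which do not say what made which table. Each experiment was fitted alone in edgeR 4.0.16 (R 4.3.3). Genes were kept with filterByExpr (minimum count 10, minimum total 15), which left 14345, 14983 and 13854 genes of 54532, 54532 and 55487. Counts were scaled by TMM and tested by the quasi-likelihood test with 1 coefficient per group, two-sided, with Benjamini-Hochberg adjustment over all genes tested and a threshold of 0.05. With 3 libraries a side, the smallest exact p is 0.10. The biological coefficient of variation was 2.88%, 7.59% and 2.95%.

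The members, roles and other lists were chosen with earlier results of these data known. The text names 19 members in every experiment and, per comparison, up to 4 members in each direction with the largest called change and a mean of at least 1 CPM in the higher of both groups. A gene named in one comparison is also given in others, and the genes named from other lists were picked with their values in view. The 19 include Fkbp10 and Derl3, which had few counts. Where 2 genes overlap, reads may be shared: of the members tested in every experiment, Manf, Sec23a, Dnajb11, Hsp90b1 and Ppib share the longest stretches with another gene (42681, 9629, 4652, 4598 and 1448 bases of their span). Alternatives were RLE factors, library totals alone, no filter on low counts, DESeq2 1.42.0, only the groups compared, a replicate block and leaving out each library. Deviations of same-numbered libraries correlated at −0.027 to 0.045, −0.14 to 0.091 and −0.032 to 0.061 in the 3 experiments, so the numbers were not taken to pair libraries. The tests were tried on simulated counts.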

Additional observations from a re-analysis of the deposited data

Results flagged for a closer look

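These members changed differently under TGFβ1 in the altered cells and in their controls, by a test of the difference itself (the interaction term of the fit). Only members named by the rule given above are listed, so some called members are left out. Each value is the log2 change of the knockout or knockdown cells less the log2 change of their controls. For NMuMG sgPBRM1 against sgCT cells at 72 h, 16 members were called. The listed differences above 0 were 2.21 for Creb3l1, 0.59 for Kdelr3, 0.41 for Creb3l2, 0.38 for Sec61g, 0.36 for Ern1, 0.34 for Ero1l and 0.18 for Sec24d. Those below 0 were −0.68 for Sdf2l1, −0.33 for Pdia4, −0.29 for Pdia6, −0.20 for Hsp90b1 and −0.17 for Herpud1. The call of Sec24d was lost with DESeq2 (adjusted p = 0.0542), on the scale of library totals alone (adjusted p = 0.224), without the filter on low counts (0.0925), with only the groups compared (0.0551) and without 9 of the 12 libraries in turn. That of Herpud1 was lost with DESeq2 (0.05), without the filter (0.108), with only the groups compared (0.0555) and without 8 of the 12 libraries in turn. In the libraries labelled shATF3 against pLKO at 72 h the differences were 0.62 for Sec24d, −0.37 for Pdia6 and −0.33 for Xbp1. These were 3 of 37 members tested, a smaller share than the 12.9% of all genes called.

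For 4T1 shPBRM1 against pLKO cells at 4 d, 22 members were called. The listed differences above 0 were 0.47 for Sdf2l1, 0.44 for Sec61b, 0.34 for Kdelr3, 0.32 for Manf, 0.31 for Xbp1, 0.27 for Creb3l2, 0.21 for Hsp90b1, 0.19 for Edem1 and 0.18 for Hspa5. Those below 0 were −0.32 for Dnajb9, −0.29 for Ern1, −0.22 for Atf6 and −0.12 for Dnajc3. The call of Dnajc3 was lost with DESeq2 (adjusted p = 0.171), RLE factors (0.111), library totals alone (0.0632), no filter on low counts (0.334) and without 11 of the 12 libraries in turn, and that of Dnajb9 with DESeq2 (0.086), no filter (0.0839) and without 6 of the 12. Sdf2l1, Hsp90b1 and Ern1 had opposite signs in the 2 cell lines, at different times, and that contrast was not tested.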

How the results depend on the processing

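All 31 counts of called members stayed within 1.5 times their main value with DESeq2, with RLE factors, with library totals alone and without the filter on low counts. These counts take both directions together, so they do not register a change of direction. With library totals alone the split into higher and lower members did move. This is given above for sgPBRM1 and sgCT cells at 72 h, for their interaction and for shPBRM1 against pLKO 4T1 cells at 4 d. The split of the members on this scale is not given for the second experiment. Of the values of single members, 595 of 604 kept their direction and side of the threshold with DESeq2, 556 of 606 with library totals alone and 3771 of 3978 with 1 library left out. The 1 value that reversed was Ero1l at 72 h against 0 h in sgPBRM1 cells, at −0.04 with library totals alone (adjusted p = 0.447), against 0.15 with TMM. With only the groups compared in the fit, 13 members were called between shATF3 and pLKO at 72 h (22 with all groups), and 7 between 72 and 48 h in shATF3 cells (12 with all groups), which leaves fewer libraries to estimate the spread. Leaving out single libraries gave 3 to 7 members for the shATF3 interaction (3 with all libraries), with 7 without replicate 2 of shATF3 at 72 h, and 3 to 4 for 72 against 48 h in pLKO cells (5 with all libraries). Library totals alone also moved the share of higher genes among all those called. It was 36.9%, 35.7% and 36% at 24, 48 and 72 h in sgPBRM1 cells (50.2%, 50.7% and 50.9% with TMM) and 40.1% and 40.2% at 24 and 72 h in sgCT cells (50.4% at both with TMM). It was 30.4%, 33.2% and 35.8% in shATF3 cells (50.8%, 49.8% and 51.1% with TMM) and 37.3%, 35.4% and 35.9% in pLKO cells of NMuMG (50.4%, 50.5% and 49.8% with TMM). For shATF3 against pLKO at 24 h it was 37.7% (47.7% with TMM), and for shPBRM1 against pLKO at 0 d it was 65.4% (54% with TMM). With a replicate block, 25 members were called between sgPBRM1 and sgCT at 0 h, against 24 without it, and no count moved by over 1.5 times, but the libraries share only a number. Depth limits Fkbp10 and Derl3, and Creb3l1 at 0 h.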
